A study of Xenopus laevis with 20 samples.

Results

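The Wnt ligand genes were followed with the 16 probe sets of the *Xenopus laevis* array whose gene symbol is wnt plus a number. They are 16 of the 15491 probe sets that remained after the array's control sequences were left out, and the rule that picked them reads the symbol alone. The 16 probe sets carry 14 symbols, namely *wnt1.L*, *wnt2b.L*, *wnt2b-b* (2 probe sets), *wnt3a.S*, *wnt4.L*, *wnt5a.S*, *wnt5a-a*, *wnt5b.S*, *wnt6.S* (2 probe sets), *wnt7b.L*, *wnt8a.L*, *wnt8b.S*, *wnt11.S* and *wnt11b.L*. The current RefSeq gene table (assembly Xenopus_laevis_v10.1) lists *wnt5a-a* as a synonym of *wnt5a.S* and *wnt2b-b* as a synonym of *wnt2b.L*, which leaves 12 current genes. That table names 30 *wnt* genes in all, and for the other 18, among them *wnt8a.S*, *wnt3a.L* and *wnt5b.L*, no probe set was named here. Homeologs are near-identical copies on the paired L and S chromosomes of this allotetraploid frog, and a probe set can take signal from both.

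Wnt ligands are secreted lipid-modified glycoproteins that bind Frizzled receptors on nearby cells. In the canonical branch a ligand that also engages the co-receptor Lrp5 or Lrp6 stabilizes beta-catenin, which then acts with TCF/LEF factors in the nucleus, while non-canonical ligands steer cell polarity and the movements of gastrulation. In the gastrula, zygotic Wnt activity is high ventrally, laterally and posteriorly, and the dorsal organizer secretes Wnt antagonists against it, among them Dkk-1, which blocks the Lrp co-receptors, and Frzb, which binds the ligands themselves.

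All samples were the ventral or the dorsal piece of bisected embryos that had received *eGFP* mRNA in the marginal zone of one ventral blastomere at the 4-cell stage. **Ven** and **Dor** were the ventral and the dorsal pieces of embryos given *eGFP* mRNA alone. **Nog**, **Dkk** and **Nog+Dkk** were ventral pieces of embryos that also received a plasmid for the BMP inhibitor noggin, a plasmid for dkk-1, or both plasmids, which are expressed only once zygotic transcription has begun. Embryos were sorted for ventral fluorescence at early stage 10. They were bisected later in stage 10 (early gastrula), with the blastopore lip part of the way around, or in the late gastrula (stage 11.5). At stage 11.5 no outer mark of the dorsal side exists and the cut followed the fluorescence. Each sample pooled 10 pieces, and each of the 10 combinations of condition and stage had 2 samples from 2 separate clutches, with clutches 1 and 2 at stage 10 and clutches 3 and 4 at stage 11.5. Such a piece holds all germ layers, and in such bulk samples fewer cells of a type and less RNA per cell cannot be told apart.

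The deposited values are RMA intensities, which were log2 transformed here, and array medians lay between 6.65 and 6.90 on that scale. The injected genes followed their labels for *dkk1.S*, which was higher than in **Ven** in **Dkk** and **Nog+Dkk** at both stages, by 2.08 to 2.30 on the log2 scale. The *nog.L* probe set rose less in **Nog**, by 0.60 and 0.63 at stages 10 and 11.5, and was 0.47 (adjusted p = 0.203) and 0.75 above **Ven** in **Nog+Dkk**. In **Dor**, *nog.L* was 2.94 and 2.14 above **Ven** at stages 10 and 11.5, and *dkk1.S* was 2.05 and 1.78 above it. The *nog.L* signal in **Nog** and **Nog+Dkk** was thus well below the dorsal one, and noggin protein was not measured. Organizer markers fixed as a list (16 probe sets of 9 genes, among them *gsc*, *otx2* and *nog*) were higher in **Dor** for 12 probe sets at stage 10 (0.684% of all probe sets called) and for 15 at stage 11.5 (2.84%). Calls were made by limma in 1 model with 10 groups and the clutch. The threshold was a Benjamini-Hochberg adjusted p under 0.1 over all 15491 probe sets. Every adjusted p comes from this model, except under named alternatives and where levels at stage 11.5 are set against stage 10. Those stage comparisons come from separate limma fits, with the clutch as a random block or on clutch means, at the same threshold. Changes are differences of log2 intensity with their standard error (SE), and n = 2 arrays for each condition and stage.

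The signal of the ligands covered most of the array's scale. *Wnt8a.L*, which encodes the main canonical ligand of the ventral and lateral mesoderm, had a mean log2 intensity of 10.09 over the 20 arrays, at the 96.26 percentile of all probe sets. *Wnt11b.L*, a non-canonical ligand whose RNA is also stored in the egg's vegetal cortex, had 10.04. These were the only ligand probe sets above the upper decile of 9.25. *Wnt5b.S* had 6.82, close to the array's median of 6.78. The other 13 had means below the median, and 10 of them were below the lower quartile of 5.23, down to *wnt4.L* at 3.73. Probe sets differ in how strongly they bind their target, so these levels describe how much signal stood behind each value and give no order of transcript amounts between genes. The deposited table holds no detection calls, so a dim probe set cannot be called expressed or absent from it.

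**Figure D1:**
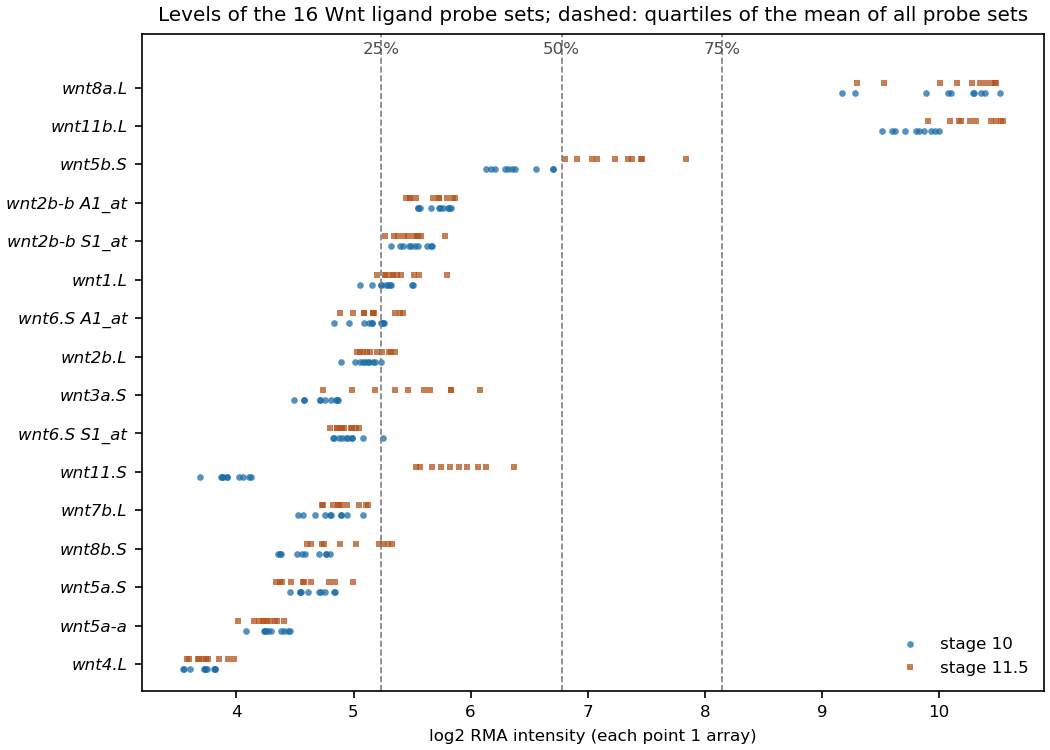
Levels of the 16 Wnt ligand probe sets on the 20 arrays. The horizontal axis is log2 RMA intensity, each point is 1 array (circles for stage 10, squares for stage 11.5), and dashed lines mark the quartiles of the mean of all probe sets. Both *wnt8a.L* and *wnt11b.L* lie right of the upper quartile on every array, and the stage 10 and stage 11.5 points of *wnt11.S* and *wnt5b.S* do not overlap.

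The first question was whether ligand transcripts differed between the dorsal and the ventral side, and whether noggin, dkk-1 or both altered them ventrally. The 4 comparisons of a stage share the same **Ven** arrays. At stage 10, 1 of the 16 ligand probe sets was lower in **Dor** and none was higher, where 0.684% of all probe sets were called and 0.181% were lower. None was called in **Nog**, **Nog+Dkk** or **Dkk**, where 0.129%, 0.271% and 0.0452% of all probe sets were. At an unadjusted limma p under 0.05 there were 4, 2 and 1 ligand probe sets in these 3 comparisons, beside 9.61%, 5.11% and 3.27% of all probe sets. At stage 11.5, 3 were lower in **Dor**, where 2.84% of all probe sets were called and 1.34% were lower. In **Nog+Dkk** 1 was lower (4.6% of all called, 1.94% lower), and in **Nog** 1 was higher (8.57% called, 4.15% higher). None was called in **Dkk** (0.445%), where 2 had an unadjusted limma p under 0.05, beside 7.99% of all probe sets. Rank products, which multiply the ranks of the change in the clutch-matched pairs, passed 3 ligand results at a false discovery rate of 10%. These were *wnt8a.L* in **Dor** at both stages and *wnt3a.S* in **Dor** at stage 11.5, all lower, where 0.968% (stage 10) and 1.22% (stage 11.5) of all probe sets passed. They passed none in the injected conditions, where the share of all probe sets was 0.161% for **Nog**, 0.129% for **Dkk** and 0.342% for **Nog+Dkk** at stage 10, and 0.465%, 0.452% and 0.529% at stage 11.5. Over the 16 probe sets the median change in **Dor** was -0.03 at stage 10 and -0.23 at stage 11.5, beside -0.01 and -0.02 over all probe sets.

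**Figure D2:**
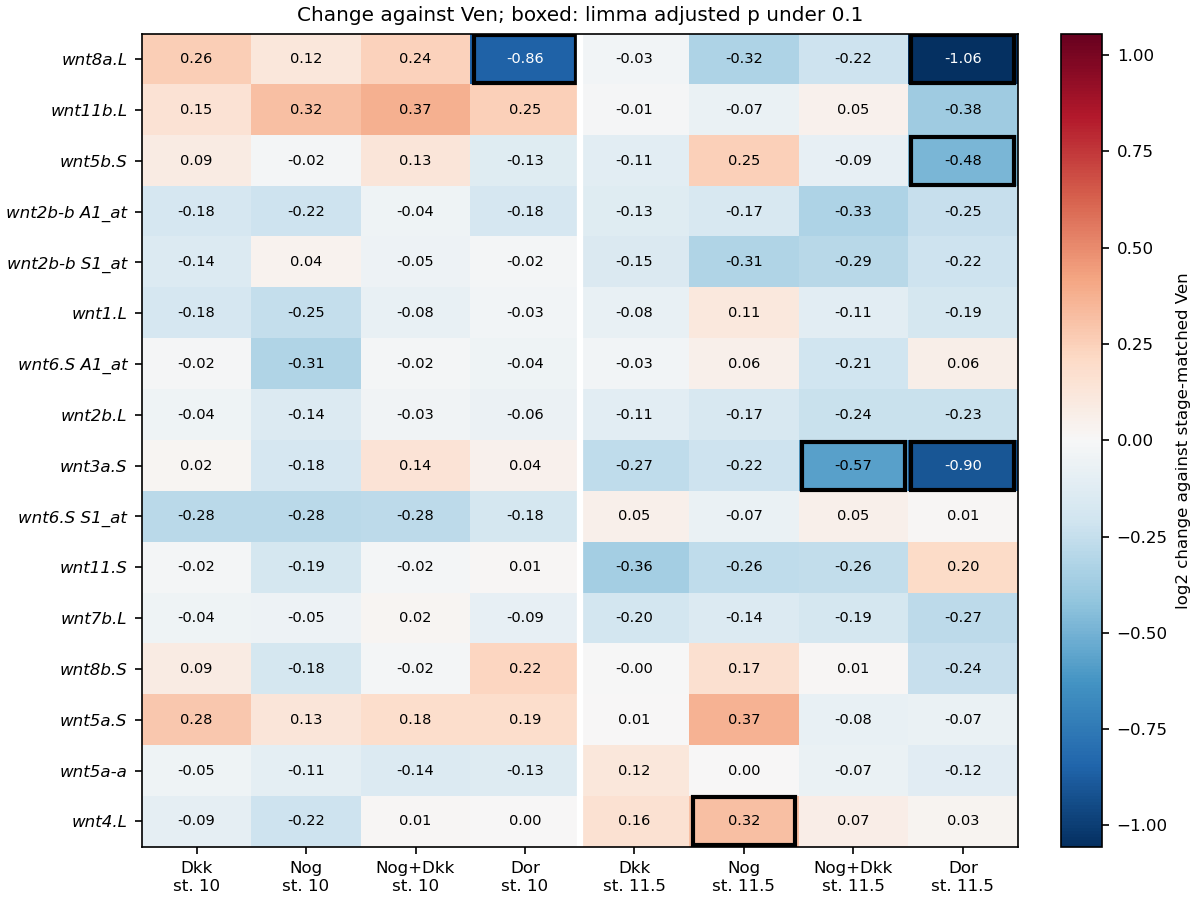
Log2 change of each Wnt ligand probe set (rows, ordered by mean level) against stage-matched **Ven** in the 4 other conditions at stage 10 (left 4 columns) and stage 11.5 (right 4 columns). Colour and number give the change, and boxes mark limma adjusted p under 0.1. Of the 6 boxes, 4 are in the **Dor** columns, where *wnt8a.L* has -0.86 and -1.06 and *wnt3a.S* has -0.90 at stage 11.5.

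*Wnt8a.L* transcripts were lower in dorsal pieces at both stages, and in no ventral condition was the change called. At stage 10 the log2 intensities were 10.07 and 10.10 in **Ven** and 9.17 and 9.28 in **Dor**. The injected ventral pieces had 10.52 and 9.88 in **Nog**, 10.39 and 10.30 in **Dkk**, and 10.36 and 10.29 in **Nog+Dkk**. Both **Dor** arrays lay below all 8 others, and only the **Nog** pair straddled the **Ven** pair. The fall in **Dor** was 0.86 on the log2 scale (change -0.86, SE 0.136, adjusted p = 0.00233), or 1.81-fold, with -0.90 in clutch 1 and -0.82 in clutch 2. Changes in the injected conditions were 0.26 in **Dkk**, 0.24 in **Nog+Dkk** and 0.12 in **Nog**, with adjusted p of at least 0.783.

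At stage 11.5 the *wnt8a.L* intensities were 10.49 and 10.45 in **Ven** and 9.53 and 9.30 in **Dor**. They were 10.48 and 10.40 in **Dkk**, 10.28 and 10.01 in **Nog**, and 10.35 and 10.15 in **Nog+Dkk**. The **Dor** arrays were again below all others, while the **Nog** and **Nog+Dkk** arrays all lay below both **Ven** arrays. The change in **Dor** was -1.06 (SE 0.136, adjusted p = 0.000111), or 2.08-fold lower, with -0.96 in clutch 3 and -1.15 in clutch 4. **Nog** had -0.32 (adjusted p = 0.197), **Nog+Dkk** had -0.22 (0.447) and **Dkk** had -0.03 (0.994). The **Dor** change did not pass the test of a difference between stages (difference -0.20, SE 0.193, adjusted p = 1).

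Set against the dorsal pieces themselves, *wnt8a.L* was higher in every injected condition. The comparisons with **Dor** share the **Dor** arrays. At stage 10 the excess over **Dor** was 1.1 in **Nog+Dkk** (adjusted p = 0.000179), 0.98 in **Nog** (0.000616) and 1.12 in **Dkk** (9.38e-05), and *wnt8a.L* was the 1 ligand probe set called in each, where 0.742%, 0.684% and 0.807% of all probe sets were. At stage 11.5 it was 0.84 in **Nog+Dkk** (0.00492), 0.73 in **Nog** (0.00519) and 1.03 in **Dkk** (0.000255). In ventral pieces given both plasmids *wnt8a.L* was thus above the dorsal pieces at both stages. In **Nog** at stage 10 the clutches gave 1.35 and 0.60, and without clutch 1 the value was 0.60 and not called.

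*Wnt3a.S*, a canonical ligand of posterior mesoderm and, later, of the tail and dorsal neural tube, was called between conditions at stage 11.5 and not at stage 10. At stage 10 its log2 intensities were 4.86 and 4.58 in **Ven**, 4.81 and 4.72 in **Dor**, and between 4.50 and 4.87 in the injected pieces, so the groups overlapped. At stage 11.5 the clutch 3 and clutch 4 arrays had 5.65 and 6.08 in **Ven**, 5.47 and 5.83 in **Nog** and 5.36 and 5.83 in **Dkk**. The **Nog+Dkk** pair had 4.99 and 5.60, and the **Dor** pair had 4.74 and 5.19. Clutch 4 was the higher array in all 5 conditions, by 0.46 on average (adjusted p = 2.47e-05, where 44.9% of all probe sets differed between these clutches). Within each clutch the order was the same at both ends, with **Ven** highest, **Nog+Dkk** second lowest and **Dor** lowest.

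**Figure D3:**
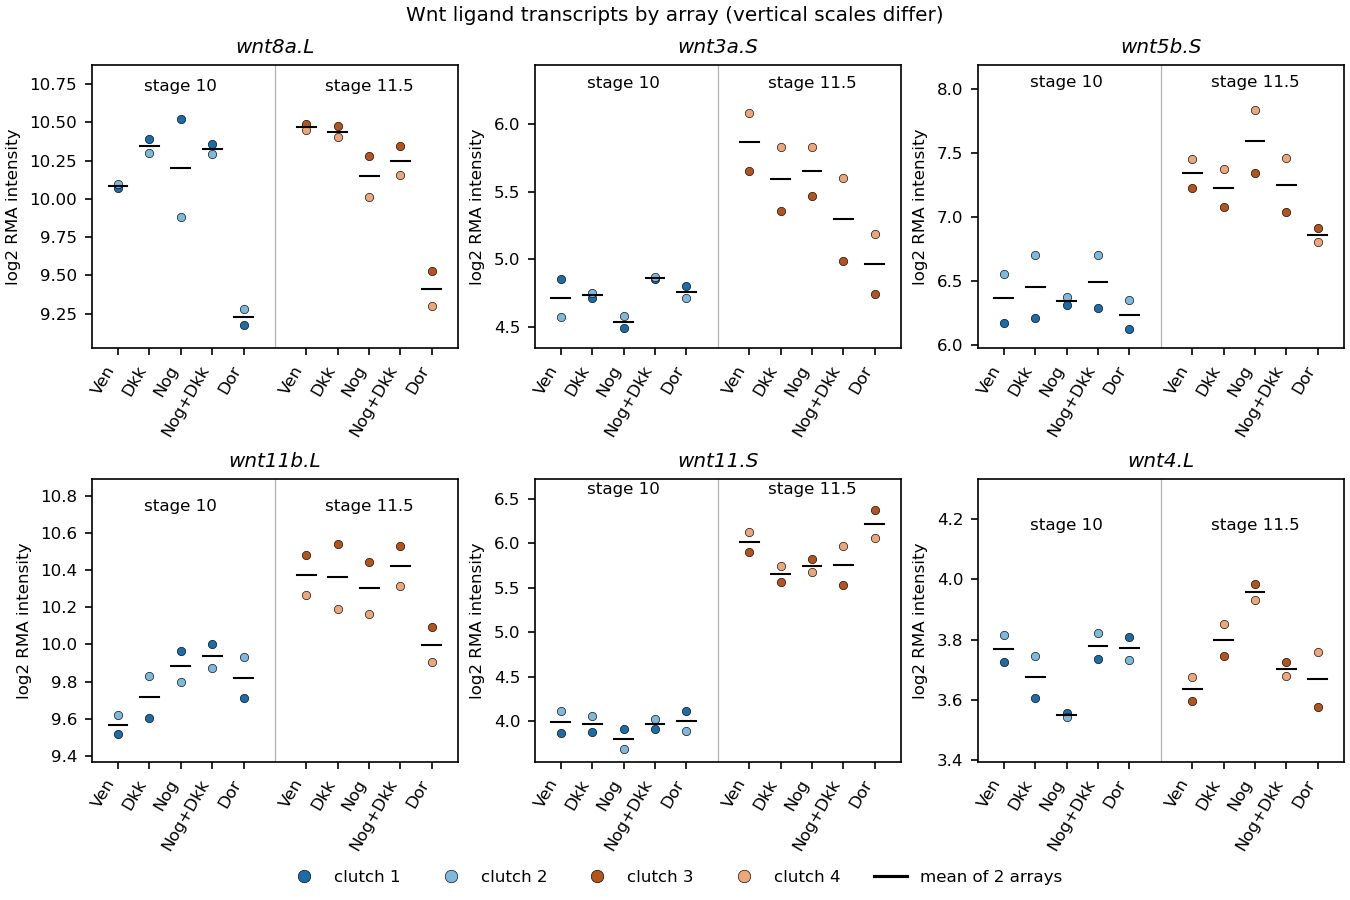
Log2 RMA intensity of 6 Wnt ligand probe sets on each array by condition, with stage 10 on the left and stage 11.5 on the right of each panel. Points are single arrays coloured by clutch, bars are means of 2 arrays, and vertical scales differ between panels. The **Dor** points of *wnt8a.L* lie below all others at both stages (9.17 to 9.53), and those of *wnt3a.S* are the lowest of their clutch at stage 11.5 (4.74 and 5.19).

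In **Dor** the stage 11.5 change of *wnt3a.S* was -0.90 (SE 0.106, adjusted p = 3.68e-05), or 1.87-fold lower, with -0.91 and -0.90 in clutches 3 and 4. In **Nog+Dkk** it was -0.57 (adjusted p = 0.00594), or 1.48-fold lower, with -0.66 and -0.48. With 32 added to each intensity before log2, which shrinks the changes of dim probe sets, they were -0.51 and -0.34, both still called. With 1 plasmid alone the changes were -0.22 in **Nog** (adjusted p = 0.272) and -0.27 in **Dkk** (0.473), both below **Ven** in each clutch. *Wnt3a.S* in **Nog+Dkk** was not called against either, at -0.35 against **Nog** (0.31) and -0.30 against **Dkk** (0.58), and its difference from the sum of the 2 single changes was -0.08 (0.954). Against **Dor**, *wnt3a.S* was higher in **Nog** (0.69, adjusted p = 0.00106) and in **Dkk** (0.63, 0.00267), and was 0.33 in **Nog+Dkk** (0.356). With the added 32 the called values were 0.38 in **Nog** and 0.35 in **Dkk**, again called.

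No clutch was sampled at both stages, so the part of the clutches in a difference of changes between stages was not tested. On the **Ven** arrays of stage 10, *wnt3a.S* lay at the 19.01 and 16.69 percentile. Whether such low signal hid a fall in **Dor** there was not tested. With these limits, the **Dor** change of *wnt3a.S* differed between the stages. It was 0.04 at stage 10 (adjusted p = 1), so that subtracting it from the later change gave -0.95 (SE 0.150, adjusted p = 0.00751), and 0.523% of all probe sets were called for this difference. Without clutch 1 the difference was -1.04 and without clutch 2 -0.85, neither of them called, and with the added 32 it was -0.53 and called. For **Nog+Dkk** the same difference was -0.71 (adjusted p = 0.102). No ligand probe set was called for it in **Nog+Dkk** or **Dkk**, where 0.142% and 0.0129% of all probe sets were, and 1 was in **Nog** (1.56%), *wnt4.L*.

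The remaining canonical ligands were dim and mostly not called. *Wnt8b.S*, known from the forebrain, had log2 intensities of 4.64 and 5.33 in **Ven** and 4.60 and 4.88 in **Dor** at stage 11.5. The **Nog** arrays had 5.02 and 5.29, above the **Dor** array of their clutch by 0.41 in each clutch (0.41, SE 0.126, adjusted p = 0.077). That call was lost without any one of the 4 clutches and with 32 added before log2 (0.20). *Wnt1.L*, a ligand of the midbrain and hindbrain boundary, ranged from 5.06 to 5.80 over the 20 arrays, and *wnt7b.L* from 4.53 to 5.12. *Wnt2b.L* lay between 4.90 and 5.35 and the *wnt2b-b* probe sets between 5.27 and 5.87. The *wnt6.S* probe sets lay between 4.80 and 5.42. None of these 7 probe sets was called in any of the 29 comparisons made.

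Among the non-canonical ligands, *wnt5b.S* was the one lower in **Dor** at stage 11.5. Its log2 intensities then were 7.23 and 7.45 in **Ven**, 7.08 and 7.37 in **Dkk**, 7.04 and 7.46 in **Nog+Dkk**, 7.35 and 7.84 in **Nog** and 6.91 and 6.80 in **Dor**. Both **Dor** arrays were below the 8 others, and the **Nog** array was the highest of its clutch in both clutches. The change in **Dor** was -0.48 (SE 0.131, adjusted p = 0.0705), or 1.40-fold lower, with -0.32 and -0.65 in clutches 3 and 4. This call was lost under 8 of 12 alternatives, including without clutch 1 (-0.48), clutch 2 (-0.48) or clutch 4 (-0.32). At stage 10 the *wnt5b.S* values were 6.18 and 6.56 in **Ven**, 6.13 and 6.35 in **Dor** and 6.21 to 6.70 in the injected pieces, and the groups overlapped.

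*Wnt5b.S* was higher in **Nog** than in **Dor** at stage 11.5 by 0.73 (SE 0.131, adjusted p = 0.00392), with 0.44 in clutch 3 and 1.03 in clutch 4. Without clutch 4 the value was 0.44 and not called. In this comparison of **Nog** with **Dor**, 5 of the 16 ligand probe sets were higher and none was lower, beside 6.78% of all probe sets called, 2.89% higher. They were *wnt8a.L*, *wnt3a.S*, *wnt5b.S*, *wnt8b.S* and *wnt5a.S* (0.44, adjusted p = 0.0913), the last a ligand of polarity and cell movement whose call was lost without clutch 1 (0.44), clutch 2 (0.44) or clutch 4 (0.27), and with 32 added before log2 (0.20). The *wnt5a-a* probe set, listed for the same current gene, was not called, with means of 4.26 in **Nog** and 4.14 in **Dor**. **Dkk** had 2 ligand probe sets higher than in **Dor**, *wnt8a.L* and *wnt3a.S* (1.58% of all called), and **Nog+Dkk** had *wnt8a.L* alone (0.536%). No ligand probe set was called for **Nog+Dkk** against **Nog** (0.00646% of all probe sets called at stage 10 and 0.658% at stage 11.5), for **Nog+Dkk** against **Dkk** (0.0129% and 0.336%) or for **Dkk** against **Nog** (0.00646% and 0.626%). Nor was any called where the **Nog+Dkk** change was set beside the added changes of the single plasmids (0% and 0.0129%). The unadjusted limma p was under 0.05 for 0 to 4 ligand probe sets in each of these 8 tests, beside 2.3% to 10.7% of all probe sets. The 4 were for **Nog+Dkk** against **Nog** at stage 11.5, where the share of all was 6.42%.

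*Wnt11b.L*, bright at both stages, had no called change against **Ven**. At stage 10 its intensities were 9.51 and 9.62 in **Ven**, 9.71 and 9.93 in **Dor**, and 9.60 and 9.83 in **Dkk**. The **Nog+Dkk** arrays had 10.00 and 9.87, and the **Nog** arrays 9.97 and 9.80. **Ven** held the lowest array of each clutch, and the changes were 0.32 in **Nog** (unadjusted p = 0.0108, adjusted p = 0.452), 0.37 in **Nog+Dkk** (0.00367, 0.513) and 0.25 in **Dor** (0.0346, 1). At stage 11.5 **Dor** was instead the lowest, with 10.09 and 9.91 below the 10.17 to 10.54 of the 8 other arrays. The **Dor** change was then -0.38 (SE 0.111, adjusted p = 0.11), and its difference from stage 10 was -0.63 (adjusted p = 0.139).

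*Wnt4.L*, known from kidney and neural tissue, was the dimmest ligand, and the only one called higher than in **Ven** in an injected condition. At stage 11.5 its log2 intensities were 3.98 and 3.93 in **Nog**, 3.60 and 3.68 in **Ven**, and between 3.58 and 3.85 on the other 6 arrays. Both **Nog** arrays thus lay above all others, the nearest of which was 3.85. The change was 0.32 (SE 0.0992, adjusted p = 0.0705), or 1.25-fold, with 0.39 and 0.25 in clutches 3 and 4. It was no longer called under 9 of 11 alternatives, including without clutch 1 (0.32), clutch 2 (0.32), clutch 3 (0.25) or clutch 4 (0.39), and with 32 added before log2 (0.10). At stage 10 the **Nog** arrays, at 3.56 and 3.54, were instead the lowest of the 10 (change -0.22, adjusted p = 0.5). The *wnt5a-a* probe set stayed between 4.01 and 4.45 on all 20 arrays and *wnt5a.S* between 4.33 and 5.0, and neither was called against **Ven**.

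Between the stages, 5 ligand probe sets were higher at stage 11.5 and none was lower, on the mean of the 5 conditions, while 48.1% of all probe sets were called and 21.5% were higher. Each stage came from other clutches, so the stage and the clutches cannot be told apart. The 5 were *wnt11.S*, *wnt5b.S*, *wnt3a.S*, *wnt11b.L* and *wnt8b.S*. *Wnt11.S*, a non-canonical ligand, lay between 3.69 and 4.12 on the 10 stage 10 arrays and between 5.53 and 6.37 on the 10 stage 11.5 arrays, with no overlap. Its change was 1.93 (SE 0.177, adjusted p = 1.36e-07), or 3.81-fold, and it was 2.02 in **Ven** and 2.21 in **Dor** alone. The stage 10 values are dim, and with 32 added before log2 the change was 0.94, with 1.01 in **Ven** and 1.15 in **Dor**, all called. The clutch means of *wnt11.S* lay close together, 3.94 and 3.95 for the stage 10 clutches, 5.84 and 5.92 for those of stage 11.5. *Wnt11.S* was not called between conditions. At stage 11.5 its mean was 6.22 in **Dor**, 6.01 in **Ven** and 5.65 to 5.75 in the injected pieces. The **Dor** array was above the **Ven** array in clutch 3 (6.37 and 5.90) and below it in clutch 4 (6.06 and 6.13).

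*Wnt5b.S* rose by 0.87 (adjusted p = 0.000285), *wnt3a.S* by 0.75 (0.000296) and *wnt11b.L* by 0.51 (0.0041). *Wnt8b.S* rose by 0.39 (0.0598), a call that was lost without clutch 1 (0.42), clutch 2 (0.36) or clutch 4 (0.17), while without clutch 3 the change was 0.61 and called. With 32 added before log2 the changes of *wnt3a.S* and *wnt8b.S* were 0.40 and 0.18, and after cyclic loess normalization that of *wnt11b.L* was 0.29, all called. In a fit to the 4 clutch means, which was added once the values were known, the calls held for *wnt11.S* (adjusted p = 0.00305), *wnt5b.S* (0.0246), *wnt3a.S* (0.0437) and *wnt11b.L* (0.0509), and not for *wnt8b.S* (0.187), while 36.6% of all probe sets were called. In **Ven** alone 4 probe sets rose (42.2% of all called), *wnt11.S*, *wnt3a.S* by 1.15 (0.63 with the added 32, called), *wnt5b.S* by 0.98 and *wnt11b.L* by 0.81. In **Dor** alone 2 rose (42.1%), *wnt11.S* and *wnt5b.S* by 0.62, the latter not called without clutch 1 (0.51). *Wnt8a.L*, the brightest ligand, had a stage change of 0.11 (adjusted p from the clutch means 0.601).

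**Figure D4:**
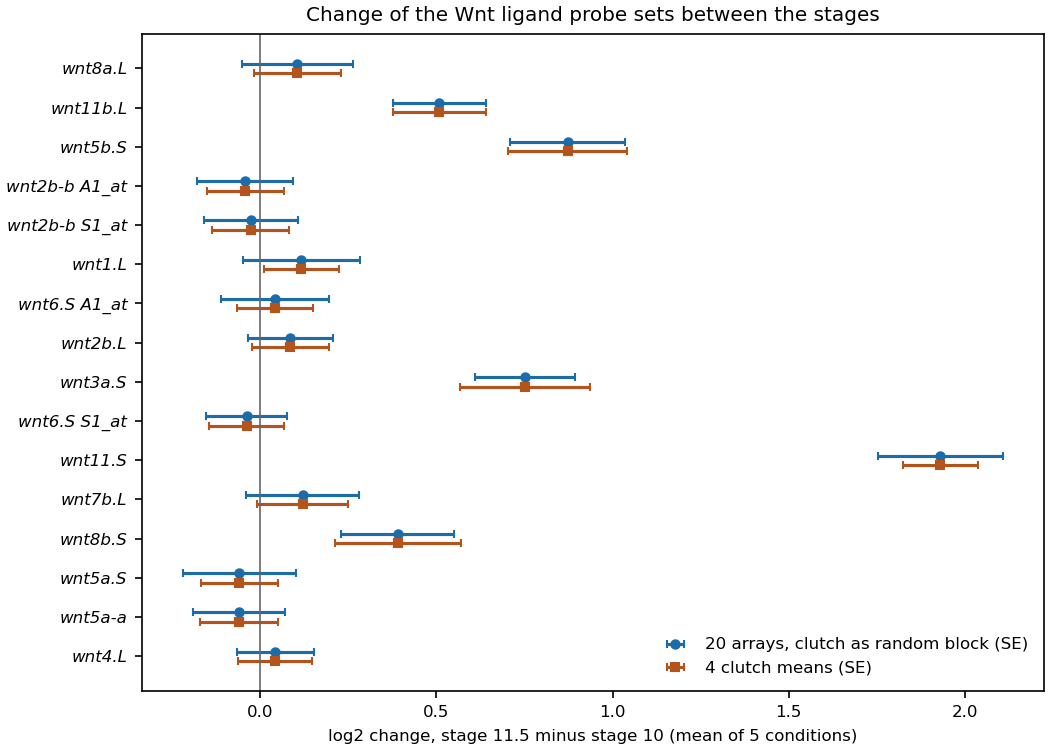
Log2 change from stage 10 to stage 11.5 of each Wnt ligand probe set, as the mean of the 5 conditions. Circles are the fit to 20 arrays with the clutch as a random block, squares the fit to 4 clutch means, and bars are standard errors. *Wnt11.S* has the change of 1.93, *wnt5b.S*, *wnt3a.S*, *wnt11b.L* and *wnt8b.S* follow between 0.87 and 0.39, and *wnt8a.L* has 0.11.

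Over the 20 arrays, after the mean of each clutch was taken out, the profile of *wnt8a.L* was most like those of *ventx3.2.S* (Pearson r = 0.884), *polr2i.S* (0.86) and *szl.L* (0.851) among 9303 other named probe sets. *Ventx3.2* is a homeobox repressor of the ventral side and sizzled (*szl*) a secreted ventral inhibitor of the proteases that cleave Chordin. *Wnt3a.S* was most like *esr-5.L*, a Hairy-related repressor (0.851), *evx1.L*, a posterior homeobox gene (0.848), and *MGC52899* (0.842). For *wnt5b.S* the closest were *cdx1.S* (0.916) and *cdx4.L* (0.883), caudal-type homeobox genes of the posterior, and *itm2a.L* (0.865). The closest to *wnt4.L* were *itgb3.L* (0.855), *prelid3b.S* (0.832) and *eladab-a* (0.802). These correlations describe arrays that share clutches and conditions, and the highest were picked from many. The neighbours were not called alike everywhere. *Szl.L* was lower than in **Ven** at stage 11.5 in **Nog** (-1.20, adjusted p = 0.0189) and in **Nog+Dkk** (-1.26, 0.0196), where *wnt8a.L* was not called, and *evx1.L* was lower in **Nog** (-1.01, 0.00415), where *wnt3a.S* was not.

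The other genes of the pathway were read from lists. Of 13 probe sets for secreted antagonists, 3 were higher and 1 was lower in **Dor** at stage 10 (0.684% of all probe sets called), and 7 were higher and 2 lower at stage 11.5 (2.84%). At stage 11.5 **Nog+Dkk** had 4 higher and 2 lower (4.6%), and **Dkk** had 5 higher and none lower (0.445%). **Nog** had 3 lower and 1 higher (8.57%), the latter *frzb.L*. At stage 11.5 *frzb.L* was higher by 1.82 in **Dor** (adjusted p = 1.16e-06), 0.70 in **Nog+Dkk** (0.0255), 0.61 in **Nog** (0.0357) and 0.76 in **Dkk** (0.0701). *Sfrp2.S*, a related Wnt-binding protein, was higher by 1.22 in **Dor** (2.87e-06), 0.98 in **Nog+Dkk** (0.000144) and 0.50 in **Dkk** (0.0972). In **Dor** the lower members were the *szl* probe sets, of the inhibitor of Chordin-cleaving proteases named above.

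Of 24 receptor and co-receptor probe sets, 8 were higher and 3 lower in **Dor** at stage 11.5 (2.84% of all called), and 6 were higher and 3 lower in **Nog+Dkk** (4.6%). *Fzd7.L*, a Frizzled of gastrulating mesoderm, gave 5 of the 8, all probe sets of 1 gene. On 1 probe set *fzd8.S* was higher in **Dor** by 2.43 at stage 10 (adjusted p = 4.19e-07). At stage 11.5 it was higher by 2.34 in **Dor** (5.75e-07) and by 0.95 in **Nog+Dkk** (0.0113), and the other *fzd8* probe sets were not called. *Fzd10.S* was lower, with -1.04 in **Dor** (0.00821), -1.16 in **Nog+Dkk** (0.00459) and -1.09 in **Dkk** (0.0359) on the probe set that moved more, and its other probe set was also called lower in these 3 conditions. Of 7 probe sets for the making and binding of ligands, 1 was higher and 1 lower at stage 11.5 in **Dor** (2.84% of all called) and **Nog+Dkk** (4.6%). **Nog** had 1 higher (8.57%) and **Dkk** 1 lower (0.445%). *Kremen2.S*, a co-receptor of Dkk-1, was lower by 1.13 in **Dor** (change -1.13, 0.000339), 1.04 in **Nog+Dkk** (-1.04, 0.00154) and 0.84 in **Dkk** (-0.84, 0.0371). On 1 probe set *gpc4.L* went the other way. It was higher by 0.66 with both plasmids (adjusted p = 0.0122), 0.55 with noggin alone (0.0248) and 0.52 dorsally (0.0544). Its other probe set was not called.

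Of 22 probe sets for Wnt targets, 2 were higher and none was lower in **Dor** at stage 10 (0.684% of all called). At stage 11.5, 7 were lower in **Dor** (2.84%) and 7 in **Nog+Dkk** (4.6%), each beside 1 higher. In **Dkk** 5 were lower (0.445%) and in **Nog** 1 was (8.57%). *Msgn1.L*, a regulator of presomitic mesoderm, had -1.25 in **Dor** (adjusted p = 2.47e-05), -1.13 in **Nog+Dkk** (0.000215), -0.81 in **Dkk** (0.0194) and -0.46 in **Nog** (0.0699). *Gbx2.2.L*, which encodes a homeodomain factor of the posterior neural ectoderm, had -1.68 in **Dkk** (0.00919), -1.41 in **Nog+Dkk** (0.00487) and -1.02 in **Dor** (0.0444) on 1 of its 2 probe sets. The other had -0.94 in **Dkk** (0.0767), -0.83 in **Nog+Dkk** (0.0356) and -0.46 in **Dor** (0.396), the last not called. The cyclin gene *ccnd1.S* was the higher member at stage 11.5, with 0.55 in **Dor** (0.0138) and 0.44 in **Nog+Dkk** (0.0595). Both *gbx2.2.L* probe sets were among the 5 lower in **Dkk**. None of the 16 ligand probe sets was called there, beside 0.445% of all probe sets. Ligand changes in **Dkk** ran from -0.36 to 0.16, 2 of them with an unadjusted limma p under 0.05, beside 7.99% of all probe sets. A link between ligand and target values was not tested.

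Of 27 cytoplasmic members, 8 were higher and 1 lower in **Nog** (8.57% of all called), and 6 were higher in **Nog+Dkk** (4.6%), at stage 11.5, and none was called in **Dor** (2.84%). They included *gsk3a.L*, a kinase of the same family as the one that marks beta-catenin for destruction (0.81 in **Nog**, adjusted p = 0.015), and *prickle1.S*, a planar polarity gene (0.72 in **Nog+Dkk**, 0.00893). Of 11 probe sets for TCF/LEF factors and partners, *tcf7l1.L* and *tcf7l1.S* were higher in **Dor** (0.99 and 0.90) and in **Nog+Dkk** (0.61 and 0.71) at stage 11.5 (2.84% and 4.6% of all called), and no other was called.

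Marker lists were read beside the ligand results, and not every list had calls in **Dor** at both stages. Some probe sets, *msgn1.L*, *dkk1.S* and *szl.L* among them, count in both a pathway list and a marker list. Of all probe sets, 0.684% were called in **Dor** at stage 10 and 2.84% at stage 11.5. In **Nog+Dkk** at stage 11.5 the share was 4.6%. The mean log2 level of the 16 organizer probe sets was 6.85 to 6.89 on the **Ven** arrays and 8.32 to 8.48 on the **Dor** arrays at stage 10, and 6.70 to 7.10 and 8.24 to 8.44 at stage 11.5. For 11 ventral probe sets, *wnt8a.L* among them, it was 7.42 to 7.50 in **Ven** and 6.59 to 6.61 in **Dor** at stage 10, with 6 called lower. At stage 11.5 it was 8.0 to 8.15 and 6.94 to 7.23, with 7 called lower, and both counts include *wnt8a.L* itself. In **Nog+Dkk** at stage 11.5 the ventral mean was 7.29 to 7.32, also with 7 called lower, while *wnt8a.L* was not one of them. For 8 probe sets of paraxial and posterior mesoderm, at stage 11.5 it was 8.22 to 8.33 in **Ven**, 7.66 to 8.12 in **Dor**, with 3 called lower, and 7.83 to 7.91 in **Nog+Dkk**, with 2 called lower. None of these was called in **Dor** at stage 10. Of 7 epidermis probe sets 2 were lower in **Dor** at stage 10, with means of 5.95 to 6.27 in **Ven** and 5.38 to 5.44 in **Dor**, and none was called in **Dor** at stage 11.5. Neural plate markers were higher in **Dor**, for 2 of 8 probe sets at stage 10 and 4 at stage 11.5, and of 14 endoderm probe sets 2 were higher at each stage and 1 lower at stage 11.5. The part of tissue makeup in the ligand values was not tested.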

How the data were processed

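Total RNA of pooled ventral or dorsal embryo pieces was hybridized to Affymetrix *Xenopus laevis* Genome Arrays, 20 in all. From the raw probe intensities the authors made RMA values with RMAExpress (background correction, quantile normalization and probe set summaries). Its version is not given here, as the sources used name none. The methods describe these values as log2, but the deposited intensity values are linear (4.67 to 9960) and were log2 transformed here. Of 15611 probe sets, 120 controls were left out. Symbols came from a platform table (9304 probe sets with 1 symbol, 195 with several, 5992 with none). Of the 16 ligand probe sets 13 matched the RefSeq table by gene ID and 3 by synonym only. No sequence was printed, and no genome was used here.

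Limma (version 3.58.1, R 4.3.3) was run on 10 groups, with a term for the clutch inside each stage (8 residual and 9.82 prior degrees of freedom). Arrays of 1 clutch deviated together, with correlations of 0.681 to 0.841 at stage 10 and 0.485 to 0.801 at stage 11.5 over 10 pairs of conditions each, and the methods state that a clutch served all 5 conditions, so the clutch pairs the samples. The titles gave the clutch, and for 2 stage 10 arrays (**Nog+Dkk** and **Dkk**, clutch 2) another label names clutch 1. The stage comparison used the clutch as a random block (consensus correlation 0.533). Rank products followed the methods, on clutch-matched log2 differences at 10% FDR. The fits were tested on simulated data with independent normal noise, which does not show how well they suit these arrays. Figures used matplotlib 3.10.9 in Python 3.11. Precision is limited by the number of arrays.

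The members, the gene lists, the tests and the naming rule were chosen with earlier results of these data known. Values by array are given for ligands called against **Ven** by limma or rank products, and for a few others added after their values were seen (*wnt8b.S*, *wnt11b.L*, *wnt11.S*). Neighbours by correlation were the 3 closest for 4 ligands, and from each pathway list up to 3 members called most often were named. Alternatives were no clutch term, each stage fitted alone, a threshold of 0.05, a trended robust prior, cyclic loess, the lowest 25% of probe sets left out, an offset of 32 before log2, each clutch left out, the 2 arrays with conflicting labels left out, and, added later, clutch means.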

Additional observations from a re-analysis of the deposited data

Results flagged for a closer look

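The change of *wnt3a.S* in **Dor** against **Ven** differed between the stages by -0.95 on the log2 scale (limma adjusted p = 0.00751), from 0.04 at stage 10 to -0.90 at stage 11.5. This difference was -0.53 and called with 32 added before log2. It was not called without the clutch term, clutch 1 (-1.04) or clutch 2 (-0.85). The change of *wnt4.L* in **Nog** differed between the stages by 0.54 (SE 0.140, adjusted p = 0.0896), from -0.22 at stage 10 to 0.32 at stage 11.5, and this difference was not called under 8 of 10 alternatives, among them leaving out clutch 1 (0.59), clutch 2 (0.49) or clutch 3 (0.47) and adding 32 before log2 (0.16). Both probe sets were dim at stage 10. No clutch was sampled at both stages, so the part of the clutches in these differences was not tested. With 2 arrays in each group, single arrays were not tested for lying apart.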

How the results depend on the processing

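No result changed direction under any alternative. The fit without the clutch term (no replicate block) called 0 ligand probe sets in **Dor** at stage 10 (1 with the block), 1 in **Dor** at stage 11.5 (3), 0 in **Nog** and 0 in **Nog+Dkk** at stage 11.5 (1 each), 4 between the other conditions (11) and 0 for a difference between stages (2). The single stage 11.5 call in **Nog** (*wnt4.L*) became 0 with each stage fitted alone, at a threshold of 0.05, with the dimmest 25% of probe sets left out, with an offset of 32 before log2, and without the 2 arrays of conflicting labels. The calls for a difference between stages became 1 at 0.05, 1 with the offset, 1 without those 2 arrays and 0 with the dimmest 25% left out. That filter leaves out 10 of the 16 ligand probe sets, *wnt3a.S*, *wnt4.L* and *wnt11.S* among them, and gave 0 for **Nog+Dkk** at stage 11.5, 7 between the other conditions and 2 between the stages (5). Leaving out each clutch in turn gave 0 to 1 in **Nog**, 1 to 2 in **Nog+Dkk** and 2 to 3 in **Dor** at stage 11.5, 8 to 11 between the other conditions, 0 to 5 for a difference between stages and 4 to 5 between the stages. Those fits leave 1 array per group at a stage, which is assumed to vary like the other groups. *Wnt8a.L* in **Dor** at stage 11.5 was called under every alternative run. The offset of 32 shrinks changes of dim probe sets by construction, and moved those of *wnt3a.S*, *wnt4.L*, *wnt5a.S*, *wnt8b.S* and *wnt11.S* by over 1.5 times. Low signal limits 10 ligand probe sets below the lower quartile.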
